A study of Mus musculus with 14 samples.

Results

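The 7 genes described here encode RNA-binding proteins: the La-related genes Larp1, Larp1b, Larp4, Larp4b, Larp6 and Larp7, and Cnbp, which encodes a zinc knuckle protein. The genes were picked by family membership, except that Larp1b, Larp4 and Cnbp were picked because their RPKM values differed between treatments, so the levels of these 3 genes are given as a description and without a test. The 7 genes hold 10 of the 25650 transcript entries of the files and 7 of 20242 gene symbols. All 10 entries were found in every file.

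RNA of 14 single embryos, made by somatic cell nuclear transfer (SCNT, the transfer of a body cell nucleus into an enucleated oocyte), was sequenced at the two-cell stage, with 1 library per embryo. The strain is given as B6D2F1 for all embryos, and the donor nuclei came from cumulus cells, the cells that surround the ovulated oocyte. All 14 embryos, controls included, were activated for 6 h in mKSOM medium with 5 mM SrCl2, 2 mM EGTA, 0.3% deionized bovine serum albumin and 5 µg/ml cytochalasin B, were then cultured in the same medium with the same albumin and were collected at 28 h after nuclear transfer, as the labels give it. The 3 control embryos received neither small molecule. The histone deacetylase inhibitor trichostatin A (TSA, 50 nM) was given from 0 to 8 h after the start of activation, and vitamin C (VC, 10 µg/ml) either from 0 to 8 h (early VC) or from 8 to 15 h (late VC). Of the treated embryos, 1 received early VC, 2 late VC alone, 3 TSA alone, 2 TSA plus early VC and 3 TSA plus late VC. Nuclear transfer was done in separate experiments, but the labels do not tie an embryo to one, so p-values measure the spread between these embryos alone.

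La-related proteins share a La module, a La motif next to an RNA recognition motif, and take their name from La, the product of Ssb, which guards the 3′ ends of RNA polymerase III transcripts. LARP1, of which LARP1B is a close relative, binds mRNAs that begin with a terminal oligopyrimidine tract, which encode ribosomal proteins and translation factors, and acts downstream of mTOR. LARP4 and LARP4B bind poly(A) and the poly(A)-binding protein and protect mRNA tails, LARP6 binds a stem-loop of collagen mRNAs, and LARP7 holds 7SK RNA in the complex that keeps the elongation kinase P-TEFb inactive. CNBP binds G-rich nucleic acid through its CCHC zinc knuckles and promotes translation. A two-cell mouse embryo still carries mRNA stored by the oocyte, whose use depends on the length of the poly(A) tail, while its own genome begins to be transcribed.

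The reads counted, recovered from the steps between the RPKM values, ran from 3021540 to 13589389 per embryo, so 3 reads on a transcript of 1 kb equal between 0.221 and 0.993 RPKM depending on the library, a floor that covers counting error only. Entries at 1 RPKM or more numbered from 3322 to 6728 per embryo. The library identifiers carry 3 numbers, taken here as sequencing pools, although the labels do not name them so. Pool 3 held only control, TSA alone and TSA plus late VC embryos, and the early VC embryo was in pool 2. All 12 oocyte and maternal markers had a read in at least 1 embryo, although Ooep was at 0 in 7 embryos and H1f8 in 9. Their summed level was 404 to 2082 RPKM over the 14 embryos. The summed level of 10 two-cell markers was 7.58 to 315 RPKM in control, 149 to 372 RPKM in TSA alone and 371 to 590 RPKM in TSA plus late VC embryos. It was 376 RPKM in the early VC embryo, 348 to 1175 RPKM in late VC alone and 182 to 554 RPKM in TSA plus early VC embryos. Of 14 cumulus and granulosa markers 11 had a read somewhere, their sum was 0.132 to 144 RPKM and was mostly Amhr2, and Fshr, Inha and Inhba were listed at 0 in every embryo. What part these markers had in the differences below was not tested. In a whole embryo, fewer transcripts per cell and less RNA in the embryo cannot be told apart.

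Cnbp had the highest sum of RPKM values among the 7 genes in 7 of the 14 embryos. Its files hold 3 entries, and the number of bases over which each was counted, recovered from the same steps, shows that they differ in kind. NM_013493 was counted over 2178 bases, which equals the 5 exons of the annotated transcript Cnbp-201 (mm9, chr6:87792609-87801100, minus strand). NM_001109745 was counted over 117 bases, the length of a single exon of the transcript Cnbp-004, and NM_001109746 over 199 bases, the length of a single exon of Cnbp-001. These matches rest on length alone, and 5.24% and 1.77% of the 33924 annotated genes hold an exon of 117 or of 199 bases. Across the annotation, the recovered length equalled the exons of a transcript in 3158 of 10813 genes with 1 entry (29.2%). Both short exons are trimmed forms of coding exons of Cnbp-201: the first loses 21 bases at its 3′ end and the second loses 3 bases at its 5′ end. The coding parts of the long forms are shown to mark the few bases, in capitals, by which the matched short exons differ from them.

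Cnbp coding exon 1, chr6:87795650-87795773, minus strand, capitals mark the bases absent from the 117-base exon matched to NM_001109745: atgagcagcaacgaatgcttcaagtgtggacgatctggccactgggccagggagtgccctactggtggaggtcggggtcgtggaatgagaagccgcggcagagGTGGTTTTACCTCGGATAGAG
Cnbp coding exon 3, chr6:87795116-87795317, minus strand, capitals mark the bases absent from the 199-base exon matched to NM_001109746: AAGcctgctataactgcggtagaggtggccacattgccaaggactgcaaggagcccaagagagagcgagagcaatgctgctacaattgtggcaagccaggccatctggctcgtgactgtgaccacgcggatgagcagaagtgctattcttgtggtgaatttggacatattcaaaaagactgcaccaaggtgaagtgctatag

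The genome has GT at the start of the 21 bases and GT again after them, the usual first bases of an intron, so both forms of exon 1 end at such a pair. Before exon 3 the genome has TG at the long form and AG, the usual last bases of an intron, at the short form. The sequences were read from the mouse genome NCBIM37, which is mm9. All 117 bases of the first short exon, of which 103 are coding, and all 199 bases of the other also lie in Cnbp-201. How the counting shared reads in such common bases between entries is not given in the sources used here.

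**Figure D1:**
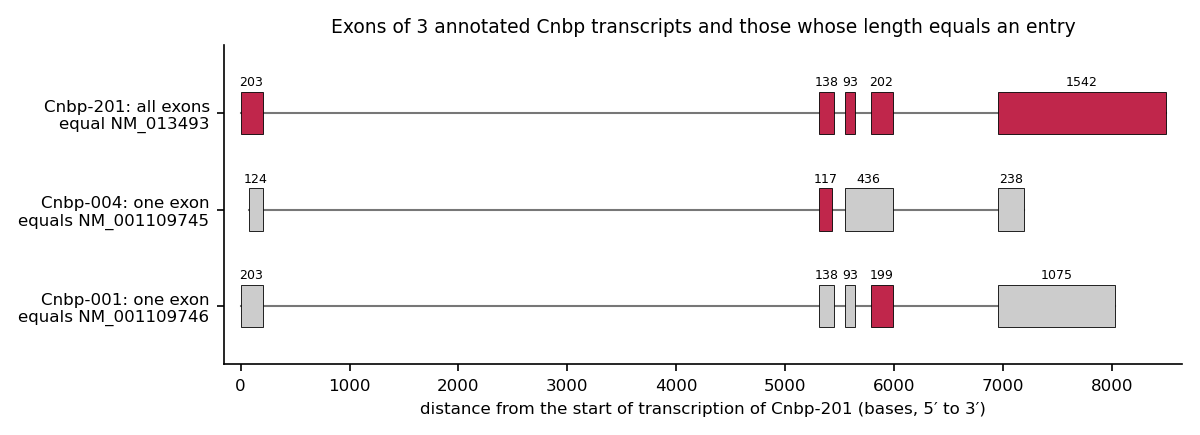
Exons of 3 annotated Cnbp transcripts, as distance in bases from the start of Cnbp-201, with exon lengths above the boxes. Red boxes are the exons whose length equals an entry of the files: all 5 exons of Cnbp-201 (2178 bases) for NM_013493, 1 exon of 117 bases for NM_001109745 and 1 exon of 199 bases for NM_001109746.

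The 117-base entry NM_001109745 was high in embryos treated with TSA. It stood at 1.58, 0 and 3.77 RPKM in the control embryos 1 to 3, which are 1, 0 and 6 reads. It was 18.1 RPKM in the early VC embryo and 12.1 and 29.9 RPKM in the late VC alone embryos. It was 2054, 5.47 and 2059 RPKM in the TSA alone embryos, of which the second had only 5 reads. It was 1320 and 748 RPKM with TSA plus early VC, and 161, 597 and 293 RPKM with TSA plus late VC. Thus 7 of the 8 embryos with TSA lay above all 6 embryos without it, and TSA alone embryo 2 lay among those without. On the log2(RPKM + 1) scale, the mean difference from control was 7.05 for TSA plus late VC and 7.03 for TSA alone, with no overlap of the groups in either comparison. For TSA alone this rests on embryo 2, whose 5 reads came from a smaller library than the 6 reads of control embryo 3. Among all entries tested, 16.2% were higher without overlap in the first comparison and 6.76% in the second, and both comparisons use the same control embryos. Control embryo 2 was at 0, so this entry passed the filter in both only through the treated embryos. Within the 3 sequencing pools, the differences were 5.98, 9.22 and 5.94 for TSA plus late VC and 9.64, 2.69 and 8.75 for TSA alone.

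The other 2 Cnbp entries did not divide the embryos by TSA. The 199-base entry NM_001109746 was 0.927, 0.732 and 0 RPKM in control embryos, 7.08 RPKM in the early VC embryo and 105 and 1.53 RPKM in the late VC alone embryos. It was 81.5, 1.29 and 0 RPKM with TSA alone, 7.70 and 243 RPKM with TSA plus early VC, and 25.5, 329 and 5.73 RPKM with TSA plus late VC. The 3 TSA plus late VC embryos were above the 3 controls, none of which had more than 1 read, and in each treatment with several treated embryos a single embryo held most of the level. The entry over the whole transcript, NM_013493, was 234, 7.09 and 64.6 RPKM in control embryos, 118 RPKM in the early VC embryo and 256 and 668 RPKM in the late VC alone embryos. It was 354, 141 and 385 RPKM with TSA alone, 244 and 110 RPKM with TSA plus early VC, and 108, 245 and 216 RPKM with TSA plus late VC. For this entry the 3 treatments with TSA each overlapped the controls, no embryo with TSA lay above all those without, and the highest value belonged to an embryo given VC alone.

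The level per base of the 117-base entry can be set against that of the entry over the whole transcript, and uneven reads along the gene and uneven sharing of reads between the entries cannot be told apart. The ratio of NM_001109745 to NM_013493 was 0 to 0.153 in the 6 embryos without TSA, with a median of 0.0460. It was 5.80, 0.0389 and 5.34 in the TSA alone embryos, 5.41 and 6.77 with TSA plus early VC, and 1.50, 2.44 and 1.36 with TSA plus late VC. The 3 embryos with late VC after TSA lay below the 4 highest of the other TSA embryos.

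In every embryo with TSA except TSA alone embryo 2, the 117-base entry made up most of the sum per gene. In the other 7 embryos NM_013493 did. The sum of the 3 Cnbp entries was 237, 7.82 and 68.3 RPKM in control embryos, 143 RPKM in the early VC embryo and 374 and 700 RPKM in the late VC alone embryos. It was 2489, 147 and 2444 RPKM with TSA alone, 1572 and 1101 RPKM with TSA plus early VC, and 294, 1171 and 514 RPKM with TSA plus late VC. By mean log2 level the order was TSA plus early VC (10.36), TSA alone (9.92), TSA plus late VC (9.14), late VC alone (9.00), early VC (7.17) and control (5.72), and of neighbours in this order only late VC alone and the single early VC embryo did not overlap. The difference from control was 3.42 for TSA plus late VC, without overlap, and 4.20 for TSA alone, with overlap. When the reads of the 3 entries were instead divided by their summed length, the difference for TSA plus late VC was 2.02 with overlap, and −0.98, 5.21 and 1.82 within pools 1 to 3, and that for TSA alone was 2.67 with overlap, and 1.01, 4.10 and 2.91 within the pools. The 117-base entry was the largest of the 3 in 7 embryos, and NM_013493 was the largest in the other 7.

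Larp1b, the lesser known relative of Larp1, also stood higher than in controls in most embryos with TSA and in some with VC alone. Its single entry NM_001040399 was counted over 1705 bases, which equals the 10 exons of the transcript Larp1b-204 at chr3:40754553-40781715, plus strand. The annotation holds a second record of the gene further along, at chr3:40825861-40844156. The level was 7.89, 2.22 and 49.1 RPKM in control embryos, 292 RPKM in the early VC embryo, and 1.43 and 546 RPKM in the late VC alone embryos. It was 851, 566 and 162 RPKM with TSA alone, 6.29 and 221 RPKM with TSA plus early VC, and 221, 72.7 and 233 RPKM with TSA plus late VC. All 6 embryos of TSA alone and TSA plus late VC were above the same 3 controls, as were 6.76% and 16.2% of all entries tested in the respective comparisons, while each treatment of 2 embryos held 1 low and 1 high embryo. The lowest and the highest of the 14 values were 1.43 and 851 RPKM, or 24 and 4383 reads.

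For Larp1b, the difference from control was 5.25 for TSA alone and 3.79 for TSA plus late VC on the log2(RPKM + 1) scale. Within pools 1 to 3 it was 6.58, 7.46 and 1.70 for TSA alone, and 4.64, 4.52 and 2.22 for TSA plus late VC. All 6 within-pool differences use the same 3 control embryos, and their positive sign follows from the lack of overlap given above. The difference between TSA plus late VC and TSA alone was −1.45, with overlap and with within-pool values of −1.94, −2.94 and 0.52, and −2.77 with median-ratio scaling. By mean log2 level the order was TSA alone (8.74), early VC (8.20), TSA plus late VC (7.29), TSA plus early VC (5.33), late VC alone (5.19) and control (3.50). All neighbours overlapped except the single early VC embryo and TSA plus late VC.

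**Figure D2:**
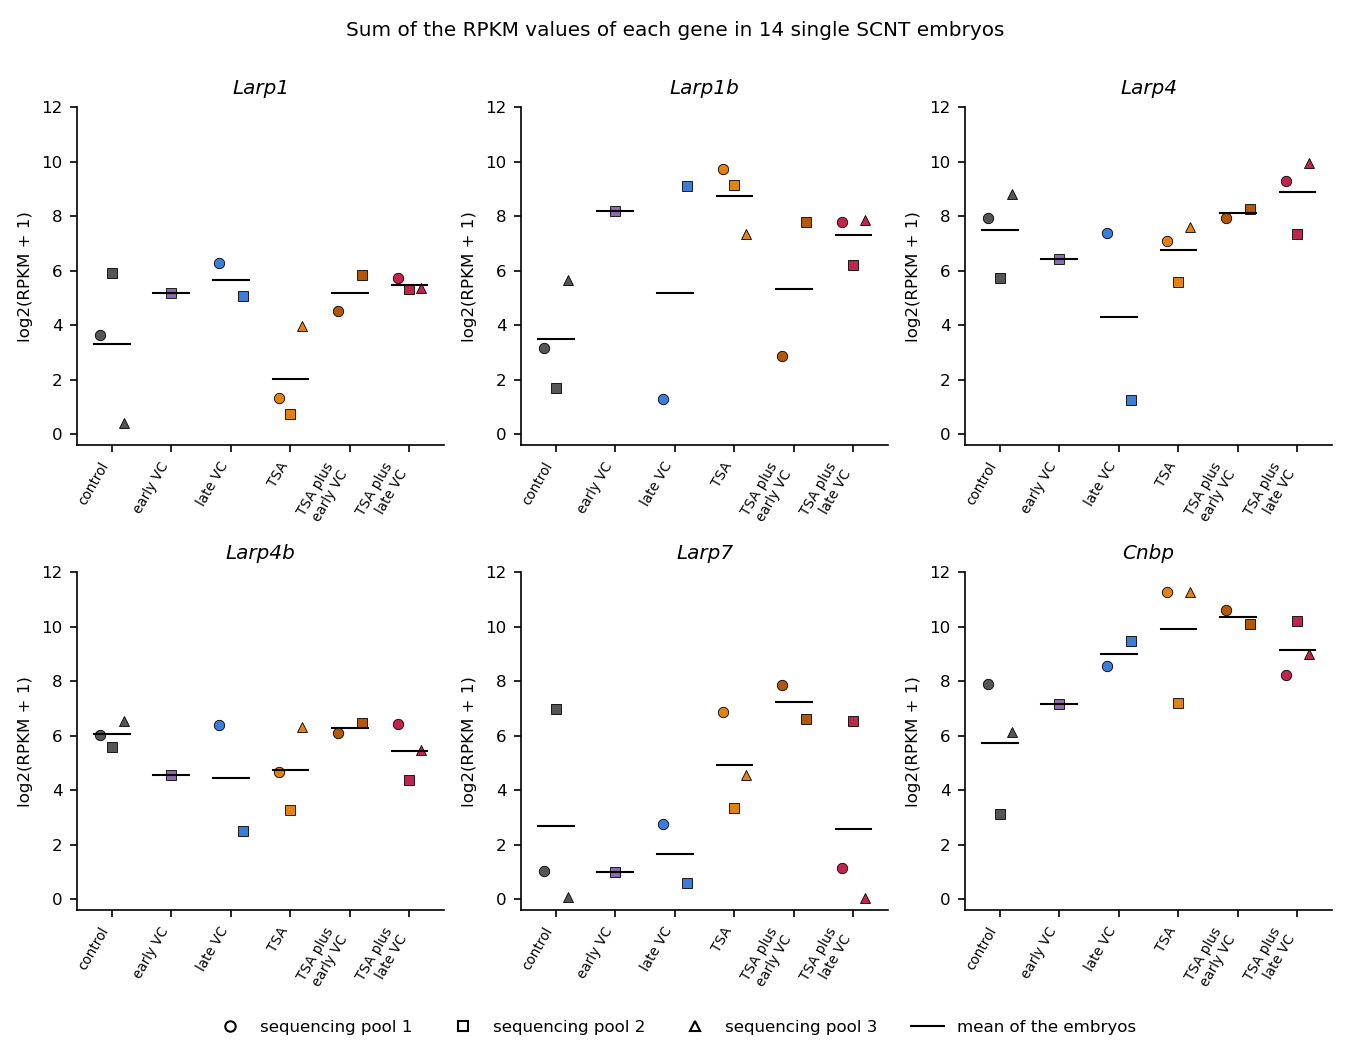
Sum of the RPKM values of each gene as log2(RPKM + 1) in every embryo (points, shaped by sequencing pool) for the 6 treatments, with the mean of each treatment as a bar. Larp6 is not drawn because it was at 0 in all 14 embryos. Larp1b and Cnbp sit higher in most embryos with TSA than in controls, while embryos of 1 treatment often lie far apart. Larp1b is also above all controls in the early VC embryo and late VC alone embryo 2, and Cnbp in both late VC alone embryos.

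Larp1, which binds the mRNAs of ribosomal proteins, has a single entry, NM_028451, counted over 6615 bases, in a gene at chr11:57822566-57875533, plus strand. It was 11.5, 58.8 and 0.334 RPKM in control embryos, 35.3 RPKM in the early VC embryo, and 77.6 and 32.2 RPKM in the late VC alone embryos. It was 1.50, 0.658 and 14.8 RPKM with TSA alone, 21.9 and 56.8 RPKM with TSA plus early VC, and 52.7, 39.3 and 40.0 RPKM with TSA plus late VC. The 3 TSA alone embryos lay below the 5 embryos given TSA with VC and below the 3 given VC alone, and the control embryos spanned nearly the whole range.

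The addition of late VC to TSA went with a Larp1 difference of 3.47 (SE 1.72, adjusted p = 0.301, limma), without overlap of the 3 against 3 embryos and with 4.42, 4.60 and 1.38 within the pools. The difference was 1.81 under quantile normalization (adjusted p = 0.747) and 2.40 with median-ratio scaling (adjusted p = 0.568). Larp1 entered this test, and that against control below, only through the TSA plus late VC embryos. TSA alone embryo 2 and control embryo 3 were under 1 RPKM. Entries at 1 RPKM or more numbered 3556 to 4249 in TSA alone and 5489 to 5720 in TSA plus late VC embryos, and the part of this difference between the libraries in those of single genes was not tested beyond the rescaling. In that comparison 18.3% of the 3243 entries tested were higher without overlap and the median over all of them was 1.18, so the Larp1 difference stood 2.29 above the median. None of the 3243 entries passed an adjusted p of 0.05 (0% called), 604 (18.6%) had an unadjusted p under 0.05, and limma-voom on the recovered reads called 313. Larp1 was not among these, with an adjusted p of 0.211. Across all 14 embryos, the coefficient of late VC was 2.96 (SE 1.34, unadjusted p = 0.0320, adjusted p = 0.582, limma), or 2.89 with the sequencing pool as a term, and the 5 embryos with late VC were at 32.2 RPKM or more. Their range nonetheless overlapped that of the 9 other embryos, which reached 58.8 RPKM. The coefficient of TSA was −0.65 (SE 1.20, adjusted p = 0.999, limma), or −0.58 with the pool as a term. Against control, TSA plus late VC embryos differed by 2.16 (SE 1.68, adjusted p = 0.531, limma), with 2.10, −0.57 and 4.94 within the pools. That value was 0.71 without control embryo 3, 3.45 without control embryo 2 and 1.25 with median-ratio scaling. TSA alone against control was not tested for Larp1, since neither group reached 1 RPKM in all 3 embryos.

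Larp4 showed its treatment differences in a short entry as well. NM_001024526 was counted over 340 bases, which equals the sum of 1 pair of exons of the gene, 204 bases at chr15:99803211-99803414 and 136 bases at chr15:99815351-99815486, plus strand, while NM_001080948 was counted over 6534 bases. The 136-base exon is the second exon of another Larp4 transcript without its first 3 bases. This match too rests on length alone, and 8.43% of annotated genes hold a pair of exons in 1 transcript that sum to 340 bases. The longer exon is shown to mark the 3 bases that the matched form lacks.

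Larp4 second exon, chr15:99815348-99815486, plus strand, capitals mark the bases absent from the 136-base form: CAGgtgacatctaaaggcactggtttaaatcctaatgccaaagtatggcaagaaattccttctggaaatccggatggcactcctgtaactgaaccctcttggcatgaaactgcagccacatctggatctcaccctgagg

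The 340-base Larp4 entry NM_001024526 was 154, 0 and 360 RPKM in control embryos, 0 in the early VC embryo, and 9.54 and 0 RPKM in the late VC alone embryos. It was 4.87, 3.01 and 0.751 RPKM with TSA alone, which are 5, 8 and 3 reads. It was 43.3 and 162 RPKM with TSA plus early VC, and 567, 86.7 and 630 RPKM with TSA plus late VC. All 3 TSA plus late VC embryos lay above the 3 TSA alone embryos, by a mean of 6.51 on the log2(RPKM + 1) scale and by 6.60, 4.45 and 8.49 within pools 1 to 3. Of all entries tested in that comparison 18.3% were higher without overlap, the median was 1.18, and the numbers of detected entries did not overlap either, as given for Larp1. TSA alone embryo 3 was under 1 RPKM, so this entry passed the filter there only through the TSA plus late VC embryos. The difference was 5.12 under quantile normalization and 5.30 with median-ratio scaling. The control embryos overlapped both groups, with a difference of 3.04 for TSA plus late VC and −3.47 for TSA alone.

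The long Larp4 entry NM_001080948 varied less: it was 91.5, 52.7 and 93.4 RPKM in control embryos, 85.8 RPKM in the early VC embryo, and 157 and 1.37 RPKM in the late VC alone embryos. It was 130, 43.9 and 191 RPKM with TSA alone, 200 and 144 RPKM with TSA plus early VC, and 56.3, 76.0 and 364 RPKM with TSA plus late VC. The 3 treatments with 3 embryos overlapped one another, and late VC alone embryo 2 was the lowest of all, at 59 reads. The difference between TSA plus late VC and TSA alone embryos was 0.17 for this entry (−1.13 with median-ratio scaling), 2.11 for the sum of both entries and 0.44 for the reads over the summed length, with overlap in each case. The sum was 246, 52.7 and 453 RPKM in control embryos, 85.8 RPKM with early VC, and 166 and 1.37 RPKM with late VC alone. It was 135, 46.9 and 191 RPKM with TSA alone, 243 and 306 RPKM with TSA plus early VC, and 624, 163 and 993 RPKM with TSA plus late VC. In order of the mean log2 sum, the treatments were TSA plus late VC (8.87), TSA plus early VC (8.10), control (7.51), TSA alone (6.75), early VC (6.44) and late VC alone (4.32), and all neighbours overlapped.

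**Figure D3:**
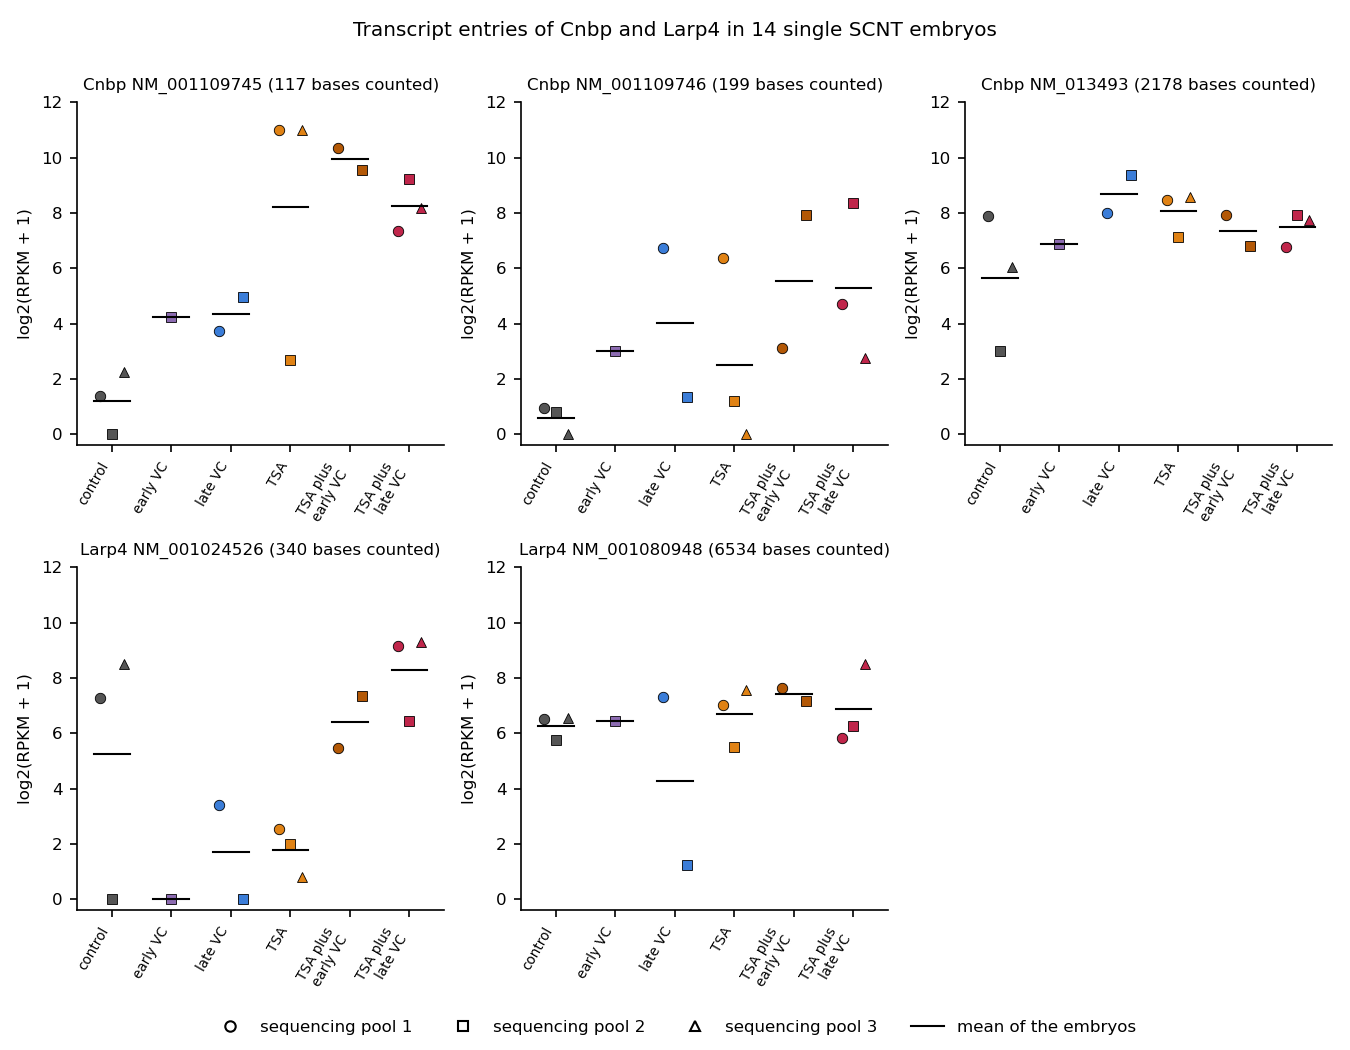
The 3 entries of Cnbp and the 2 entries of Larp4 as log2(RPKM + 1) in every embryo (points, shaped by sequencing pool), with the mean of each treatment as a bar and the number of bases counted in each title. The 117-base Cnbp entry is higher in 7 of the 8 embryos with TSA than in all 6 without, and TSA alone embryo 2 lies among those without. The 340-base Larp4 entry is higher in every TSA plus late VC than in every TSA alone embryo, while the control embryos overlap both groups. These groups overlap in the entries counted over 2178 and 6534 bases.

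Larp4b, whose protein also binds the poly(A)-binding protein, was detected in all 14 embryos and passed the test in no comparison. Its entry NM_172585 was counted over 4688 bases, in a gene at chr13:9093151-9172332, plus strand. It was 63.3, 47.5 and 91.2 RPKM in control embryos, 22.7 RPKM in the early VC embryo, and 82.8 and 4.67 RPKM in the late VC alone embryos. It was 24.7, 8.63 and 78.1 RPKM with TSA alone, 67.0 and 87.9 RPKM with TSA plus early VC, and 85.1, 19.5 and 43.6 RPKM with TSA plus late VC. The 3 treatments with 3 embryos overlapped one another, and no control embryo was under 47.5 RPKM. The difference was −0.62 (SE 1.12, adjusted p = 0.822, limma) for TSA plus late VC against control, with 0.42, −1.24 and −1.05 within the pools. It was −1.29 (SE 1.58, adjusted p = 0.787) for TSA alone against control, with −1.32, −2.33 and −0.22 within the pools, and 0.67 (SE 1.50, adjusted p = 0.861) for TSA plus late VC against TSA alone. The last value turned negative under quantile normalization (−0.31) and median-ratio scaling (−0.59). Without 1 embryo the first ran from −1.12 to −0.091 (without TSA plus late VC embryo 1 or 2), the second from −2.07 to −0.55 (without TSA alone embryo 3 or 2) and the last from −0.073 to 1.45 (without TSA alone embryo 2 or 3). Larp4 and Larp4b had the closest ranks of any pair of the 6 detected genes over the 14 embryos, with a Spearman rho of 0.73, which is a description of values from shared libraries.

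Larp7, the 7SK RNA-binding member, ranged from 1 read to 231 RPKM over the embryos. Its entry NM_138593 was counted over 2121 bases, in a gene at chr3:127239872-127256266, minus strand. It was 1.04, 125 and 0.0694 RPKM in control embryos, 0.996 RPKM in the early VC embryo, and 5.78 and 0.502 RPKM in the late VC alone embryos. It was 117, 9.05 and 22.3 RPKM with TSA alone, 231 and 97.5 RPKM with TSA plus early VC, and 1.19, 91.1 and 0.0384 RPKM with TSA plus late VC. All 5 embryos given TSA without late VC were at 9.05 RPKM or more, and 1 control and 1 TSA plus late VC embryo were as high. The lowest 2 values were 2 reads and 1 read. The coefficient of TSA across the 14 embryos was 2.54 (SE 1.40, unadjusted p = 0.0755, adjusted p = 0.987, limma), or 2.93 with the sequencing pool as a term. TSA alone against control gave 2.21 (SE 2.17, adjusted p = 0.726), with 5.85, −3.65 and 4.45 within the pools, and TSA plus late VC against TSA alone gave −2.35 (SE 2.00, adjusted p = 0.602), with −5.75, 3.20 and −4.49. The first value was 0.91 without control embryo 3 and 4.35 without control embryo 2, and the second ran from −4.32 to −1.09 without TSA plus late VC embryo 2 or 3. In both comparisons, the pair of embryos of the second pool went against the other pairs. Larp7 entered both only through the TSA alone embryos, since control embryo 3 and TSA plus late VC embryo 3 were under 1 RPKM. The late VC coefficient was −1.85 (SE 1.56, adjusted p = 0.813, limma), or −2.29 with the pool as a term.

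Larp6 (NM_026235, chr9:60560796-60586608, plus strand) had no read in any of the 14 embryos. In the shallowest library 3 reads would have been 0.993 RPKM for a transcript of 1 kb. The collagen mRNAs that its protein binds were near 0 too: Col1a1, Col1a2 and Col3a1 reached at most 0.124, 0.0456 and 0.0331 RPKM, and Vim, which encodes its cytoskeletal partner vimentin, reached 0.128 RPKM. Strap, another partner, was detected in all 14 embryos at 2.92 to 280 RPKM.

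**Figure D4:**
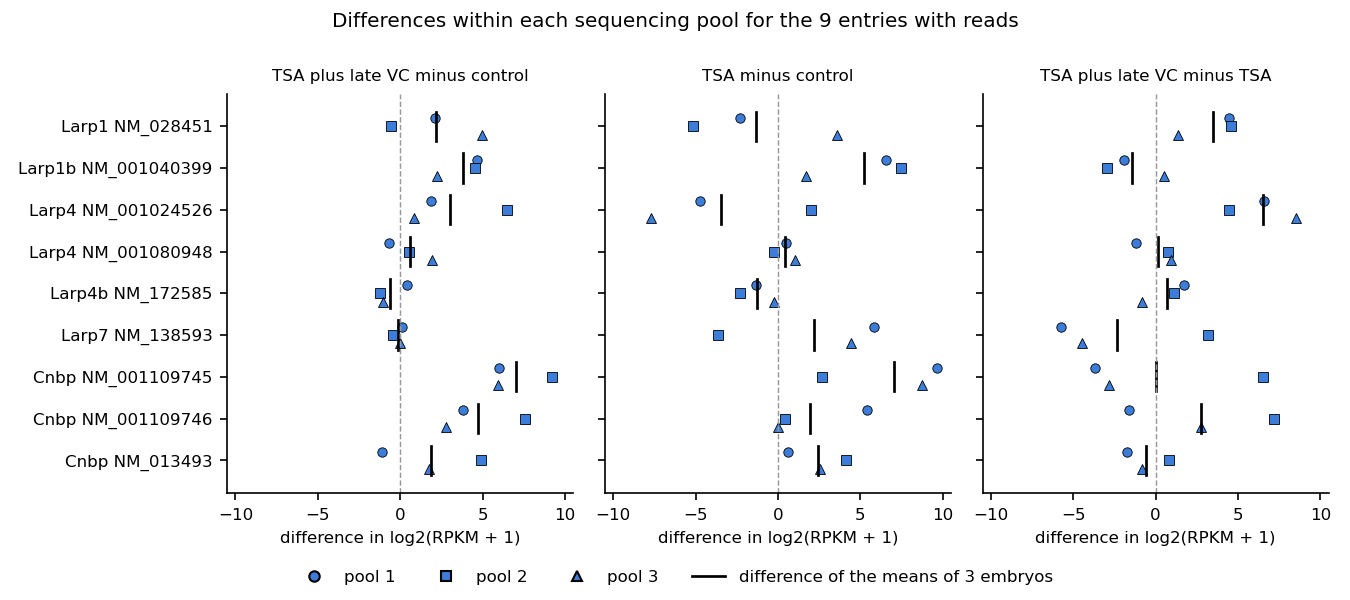
Differences in log2(RPKM + 1) between 2 embryos of the same sequencing pool (points, 1 per pool) and between the means of 3 embryos (bars) for the 9 entries with reads, in 3 comparisons. The first 2 comparisons share the control embryos, and each of the others shares 1 group with the third. Larp1b and the 117-base Cnbp entry lie to the right of 0 in every pool in the first 2 comparisons, and Larp1 and the 340-base Larp4 entry in the third. In these cases the compared groups did not overlap, which fixes the sign in every pool. The 340-base Larp4 and 199-base Cnbp entries also lie to the right in every pool in the first comparison, and Cnbp NM_013493 in the second.

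Of the entries chosen by family alone, 0 of 2 tested were called in TSA plus late VC against control, where 1 of 3416 entries (0.0293%) was called in all. In TSA alone against control 0 of 2 were called, against 3 of 2529 entries (0.119%), and in TSA plus late VC against TSA alone 0 of 3 were called. Across the 14 embryos 0 of 3 were called for TSA, against 2 of 5312 entries (0.0377%), and 0 of 3 for late VC, against 3 of 5312 (0.0565%). The interaction of TSA and late VC, fitted on 11 embryos, gave 1.11 for Larp1 (−1.07 with quantile normalization and −0.14 with median-ratio scaling), −1.32 for Larp7 and 2.27 for Larp4b, with adjusted p-values of 0.974, 0.970 and 0.928 (limma), and called none of 4004 entries (0%). Without 1 embryo the interaction ran from −3.46 to −0.015 for Larp7 (without control embryo 2 or 3) and from 0.33 to 4.21 for Larp4b (without late VC alone embryo 2 or 1). Of the 4004 entries, 221 (5.52%) had an unadjusted p under 0.05 and limma-voom called 1. In these 6 tests, the only unadjusted p under 0.05 among the family members belonged to Larp1 for late VC, where 7.93% of all entries had one, and limma-voom called none of them. The median over all entries was not 0: it was 0.78, −0.38 and 1.18 in the 3 group comparisons, 0.01 for TSA, 0.50 for late VC and 0.81 for the interaction. Relative to these medians, the TSA plus late VC to control differences of Larp1 and Larp4b were 1.38 and −1.40.

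The other genes of these pathways gave no call either, in any of the 6 tests: 0 genes of the 4 further lists passed an adjusted p of 0.05 with limma. Of 12 partners of LARP1 and LARP4 at the poly(A) tail, the cap and mTOR, 10 were tested against control in TSA plus late VC embryos, and 3 entries higher and 2 lower had an unadjusted p under 0.05 (14.7% and 3.72% over all entries), with a list median of 1.24 beside 0.78 for all entries. The 2 with the highest mean level were Eif4e1b, an oocyte cap-binding protein, at 343 to 3424 RPKM, and Pabpc4, a poly(A)-binding protein, at 95.5 to 833 RPKM. The 2 Eif4e1b entries had differences of −2.34 and −1.75 in that comparison (adjusted p = 0.110 for both, limma). Of the 7SK and P-TEFb partners of LARP7, 6 of 7 were found and 4 tested in that comparison, with a median of 2.46 and 2 entries higher at an unadjusted p under 0.05. Mepce, which caps 7SK RNA, was at 1.46 to 172 RPKM. Hexim1, which inhibits P-TEFb, was at 0.301 to 212 RPKM, with a difference of 6.12 (SE 1.67, adjusted p = 0.0638, limma) for TSA plus late VC against TSA alone. Hexim1 entered that test only through the TSA plus late VC embryos. In that comparison the median over all entries was 1.18, and 18.6% of them had an unadjusted p under 0.05.

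Of 8 zinc knuckle, cold shock and G-quadruplex-binding relatives of CNBP, 6 were tested in each of the 3 group comparisons, and the list medians were 0.74, 0.02 and −0.61 beside 0.78, −0.38 and 1.18 for all entries. Ybx3, which encodes a cold shock domain protein, was at 2.10 to 847 RPKM and had a difference of −4.92 (SE 1.27, adjusted p = 0.110, limma) for TSA plus late VC against control. Zcchc13, the retrogene relative of Cnbp, was listed at 0 in all 14 embryos. Ssb, the gene of La itself, was at 0 in 3 embryos, at a median of 2.56 RPKM and at 307 RPKM at most. Those levels are sums of its entries. The coefficients of the entry NM_009278 across the 14 embryos were −2.13 for TSA (adjusted p = 0.990) and 2.39 for late VC (adjusted p = 0.711, both limma). The other entry of Ssb, the larger one in 3 embryos, was not tested.

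The genes whose summed RPKM was closest in rank to each of the 3 value-chosen genes over the 14 embryos were named by Spearman rho among 4371 genes with 1 RPKM or more in at least 7 embryos. For Larp1b they were Glul (0.890), Ptma (0.842) and Rpl12 (0.833), for Larp4 Aste1 (0.890), Ephb6 (0.886) and Vil1 (0.877), and for Cnbp Yipf6 (0.833), Gtf2i (0.824) and C1d (0.793). Libraries and depth are shared between these genes.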

How the data were processed

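The authors trimmed low-quality bases and adaptors from single-end reads of 50 bases, mapped them to mm9 with TopHat (TopHat2 in the submitters' processing notes) and deposited RPKM values per transcript entry, normalized to total counts and transcript length. Libraries were made from part of the RNA of 1 embryo with 14 and then 12 cycles of PCR and no molecular identifiers, so reads are not independent molecules. Entries were named through RefSeq transcript accessions (25250 of 25650 matched). Whole reads were recovered from the RPKM steps, and 99.99% of 14532 entries with reads in several embryos were whole within 0.01 read. The length of an entry came from the same steps.

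Entries that reached 1 RPKM in every embryo of at least 1 of the compared groups (in 6 or more embryos for the fits of 14 or 11) were tested on log2(RPKM + 1) with limma 3.58.1 in R 4.3.3, using lmFit and a trended eBayes. The Benjamini-Hochberg adjustment ran over all tested entries, with a threshold of 0.05. SE is the standard error of a log2 difference, and a fold on this scale understates the change of low entries. The count test of the paper (edgeR) was not used as a main test, since the values are not counts. The test was checked on simulated data. The members, the pathway lists and the marker lists were chosen with earlier results of these data known. Named genes were the 7 members, Ssb, list genes past the threshold, the 2 genes of highest mean RPKM per list, and the 3 genes nearest in rank to each of Larp1b, Larp4 and Cnbp. The values of a single gene that this rule names are not reported here. In the 3 treatments with 3 embryos, the replicate number equalled the pool number. Deviations from the treatment mean correlated at 0.00995 to 0.0677 between same-numbered embryos (mean 0.0446) and at a mean of −0.0223 between the others. The reported tests of 2 groups had no term for the pool. Alternatives were a pseudocount of 0.1, no filter, a minimum of 5 RPKM, quantile and median-ratio scaling, eBayes without a trend, a replicate block, all 14 embryos in 1 fit, a filter on any 3 of 6 embryos, entries summed, and each embryo left out. Limma-voom on recovered reads and reads over summed length were added after seeing the data. Retroelements were not analysed here. Other steps ran in Python 3.11.15 (pandas 2.3.3, numpy 2.4.6, scipy 1.17.1; figures in matplotlib 3.10.9).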

Additional observations from a re-analysis of the deposited data

How the results depend on the processing

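The count of 0 family entries called held under every alternative run in the 6 tests. The replicate block left 0 calls as well, with the Larp1 difference at 3.47 (adjusted p = 0.363) for TSA plus late VC against TSA alone. In the treatments of this comparison the replicate block is the same as the pool. Over all entries, calls were unstable: in that comparison the block called 196, a pseudocount of 0.1 called 195, a minimum of 5 RPKM called 241 and limma-voom 313, against 0 in the reported test, and leaving out 1 embryo called 0 to 327. Against control, TSA plus late VC calls went from 1 to 20 with the block, 118, 211 and 192 in the same order, and 0 to 100 without 1 embryo, and TSA alone calls from 3 to 4, 104, 127 and 123, and 0 to 316. Of 317 member values under an alternative 16 changed sign, and none passed the threshold. Larp4b for TSA plus late VC against TSA alone became −0.31 (quantile normalization), −0.59 (median-ratio scaling) and ran from −0.073 (without TSA alone embryo 2) to 1.45 without 1 embryo. Its TSA coefficient became −0.047 (quantile), −0.080 (median-ratio), −0.19 (pool as a replicate block) and −0.064 (limma-voom), and −0.52 to 0.54 without 1 embryo. Its late VC coefficient ran from −0.90 to 0.40 without 1 embryo. The Larp1 interaction became −1.07 (quantile) and −0.14 (median-ratio), and −0.18 to 2.56 without 1 embryo. The causes were not tested. The mean Cnbp level over 14 embryos was 804 RPKM as a sum and 226 RPKM over the summed length, and the mean Larp4 level 265 and 122 RPKM. At 3 embryos a group, SEs of 1 to 2 log2 units limit what could be called.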
